A study of Mus musculus with 9 samples.

Results

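Mouse hearts treated with the extracellular vesicles of cardiovascular progenitor cells were compared with hearts treated with the progenitor cells themselves. Of the 9 arrays of the series, 6 entered the comparison, the 3 whose titles name vesicles and the 3 whose titles name cells. Titles also give each array a VTS number from 1 to 3, whose meaning is not stated, and each number is carried by 1 vesicle array and 1 cell array. The difference is therefore given over the groups and within each number, always as vesicles minus cells. All mice were immunodeficient nude mice with an infarct from permanent ligation of the left anterior descending artery, and only mice with an ejection fraction under 50% at 3 weeks were treated. Cell-treated hearts received 500000 cells, and vesicle-treated hearts received the output of as many cells over 48 hours. The labels describe 10 µL at each of 3 sites beside the infarct, placed through the closed chest under echocardiography, for the cell grafts, and give no separate route for vesicles. Whole frozen hearts were extracted 6 weeks after treatment. The 2 control arrays, VTS1 and VTS3, came from infarcted hearts given the medium alpha-MEM, and the 1 sham array, VTS3, from an infarcted heart that received only the needle. VTS1 and VTS2 belong to experiment 1 of the titles and VTS3 to experiment 9, and VTS2 has no control array. The labels do not say that arrays of a group came from different mice, so p-values measure the spread between these arrays. The 2 control arrays enter the estimate of that spread.

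Extracellular vesicles are membrane particles that carry proteins and RNA out of a cell and can be taken up by others. An infarct of the heart is replaced by a scar that fibroblasts build from collagens, matricellular proteins and proteoglycans, while the surviving muscle lives on fatty acid oxidation in its mitochondria. Nude mice lack a working thymus and most mature T cells but keep macrophages, B cells and natural killer cells, and most of their cells can answer interferon with class I antigen presentation. The arrays measure whole hearts, so fewer cells of a type and less RNA per cell cannot be told apart. Levels below are deposited log2 values of 1 probe set per gene. They compare arrays for the same gene and not genes with each other.

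The arrays carried a heart profile: Myh6, the main motor protein of adult mouse heart muscle, lay between 12.84 and 12.96 and Nppa, the atrial natriuretic peptide, between 12.93 and 13.26 on the 6 arrays. None of the 24 measured markers of T and NK lymphocytes had a group mean above background, taken here as the level that 95% of negative control probe sets do not exceed. That level lay between 7.18 and 7.28 over the 9 arrays, and 6772 of 30142 genes had a vesicle or cell mean above it. Some arrays stood apart. Cells VTS2 correlated least with the other cell arrays (Pearson r over genes 0.9896 with cells VTS1 and 0.9816 with cells VTS3, against 0.9919 between those), and had the highest immediate early and heat shock levels. Vesicles VTS2 carried lung transcripts, and cells VTS1 had the highest interferon levels and the lowest clock levels of the 6 arrays. The lists that rest on such an array, and some of the main genes in them, are also given without it.

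No gene passed the test. limma's smallest adjusted p was 0.823 over 30142 genes, so the share called was 0.0%. At an unadjusted p under 0.05 there were 527 genes higher with vesicles (1.75%) and 782 lower (2.59%), together 1309 where that cut-off alone would give 1507.1. Without cells VTS1 these counts were 817 and 1008. All adjusted p-values of genes named below lay between 0.823 and 1. A p that misses the threshold does not show that the treatments act alike, but the intervals bound the differences: of the 6772 genes above background, 6728 had a 95% interval within ±1 on the log2 scale and 5745 within ±0.32, with a median distance of 0.11 from the estimate to either bound. These intervals are for each gene alone. Identical deposited values on several arrays narrow a gene's spread, and so its interval and standard error, here and below. No such tie on 3 or more arrays was found in 11724 of the 30142 genes. Among the 6772 genes above background 155 had all vesicle arrays above all cell arrays (2.29%) and 248 had all of them below (3.66%). The 248 include near copies of 1 family of ribosomal RNA genes, described under other observations. Of the genes above background, 691 (10.2%) were higher and 831 (12.3%) lower within all 3 VTS numbers. Over all 30142 genes the shares without overlap were 1.85% and 2.56%, and those with 1 sign in all 3 numbers were 7.53% higher and 8.83% lower. After quantile normalization the genes without overlap numbered 1634 higher and 1101 lower. Only 5 genes above background differed by more than 2-fold between the group means. They were Igtp, Iigp1 and 2 genes known by clone names, all lower with vesicles, and Gdpd3, a phosphodiesterase, higher with vesicles. Gdpd3 rested on cells VTS2, which read 5.04 while the other 5 arrays read 7.82 to 8.75, and without it the difference was 0.29.

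**Figure D1:**
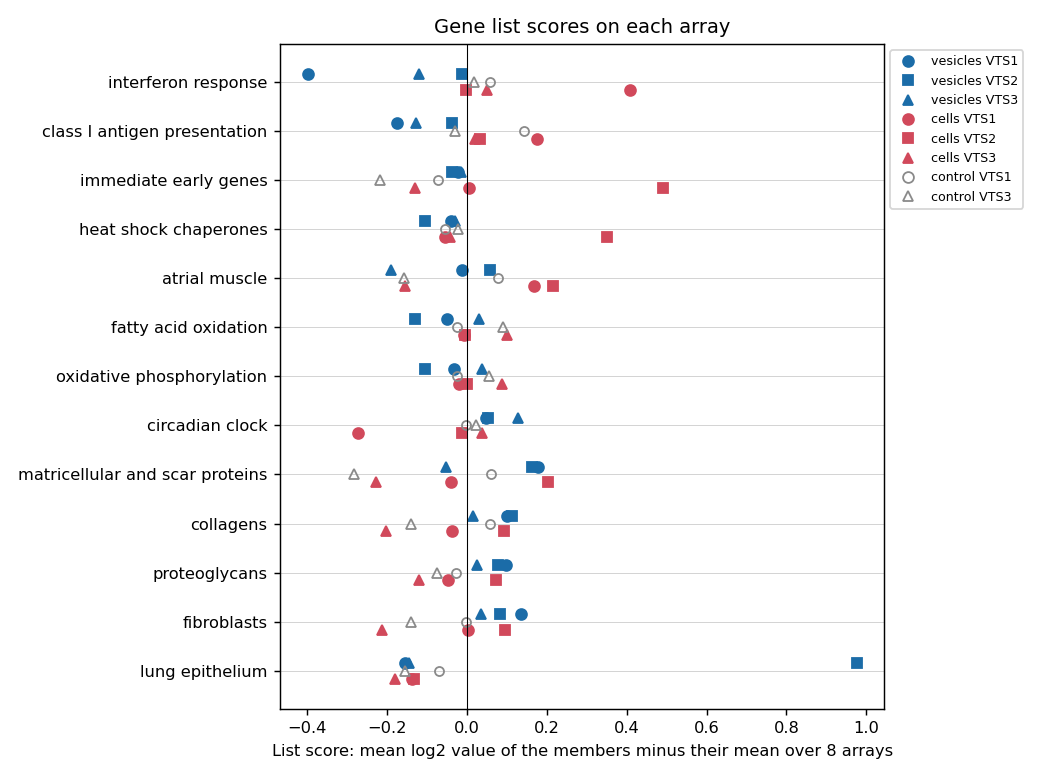
Score of 13 gene lists on each array, as the mean over members of the log2 value minus each gene's mean over the 8 injected arrays. Filled blue points are the 3 vesicle arrays, filled red points the 3 cell arrays and open grey points the 2 control arrays; for class I antigen presentation the vesicle scores (-0.18, -0.038 and -0.13) lie below the cell scores (0.18, 0.031 and 0.019), while for immediate early genes cells VTS2 stands alone at 0.49 and for lung epithelium vesicles VTS2 stands alone at 0.98.

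The largest difference of any gene above background was in Igtp, 1 of the genes that interferons induce. Promoters of such genes often carry the interferon-stimulated response element, searched here as 2 copies of GAAA with any 2 bases between them, on both strands, in the 250 bases before to 50 after the gene start (RefSeq, GRCm38.p6). It was found in 20 of the 35 interferon response genes that have a promoter sequence (57.1%), in 3 of 15 class I presentation genes (20.0%), and in 692 of 17970 genes of the array (3.85%). The following 4 promoters are shown because of that difference in Igtp, while Irgm1 is of the same GTPase family, Gbp2 is of another family of interferon-induced GTPases, and B2m is the chain shared by all class I molecules. Capitals mark the matches, and sequences run 5′ to 3′ on the gene's strand: Igtp chr11:58199306-58199605 on the plus strand, Irgm1 chr11:48871371-48871670 on the minus strand, Gbp2 chr3:142620413-142620712 on the plus strand and B2m chr2:122147437-122147736 on the plus strand.
Igtp: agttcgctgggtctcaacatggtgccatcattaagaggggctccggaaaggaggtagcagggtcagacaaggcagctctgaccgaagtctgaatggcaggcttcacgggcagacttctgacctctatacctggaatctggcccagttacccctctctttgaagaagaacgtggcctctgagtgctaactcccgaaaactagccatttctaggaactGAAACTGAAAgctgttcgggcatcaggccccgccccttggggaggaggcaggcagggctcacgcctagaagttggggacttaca
Irgm1: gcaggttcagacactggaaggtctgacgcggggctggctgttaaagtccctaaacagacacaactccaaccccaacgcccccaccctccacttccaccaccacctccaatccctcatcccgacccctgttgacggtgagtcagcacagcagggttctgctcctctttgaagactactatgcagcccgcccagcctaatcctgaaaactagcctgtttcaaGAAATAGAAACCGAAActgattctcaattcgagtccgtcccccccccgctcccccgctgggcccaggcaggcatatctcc
Gbp2: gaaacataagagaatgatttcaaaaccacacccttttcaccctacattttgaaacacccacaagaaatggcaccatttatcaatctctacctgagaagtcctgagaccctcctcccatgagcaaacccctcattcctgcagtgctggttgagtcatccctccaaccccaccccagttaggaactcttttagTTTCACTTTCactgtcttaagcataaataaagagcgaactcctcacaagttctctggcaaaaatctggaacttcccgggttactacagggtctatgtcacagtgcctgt
B2m: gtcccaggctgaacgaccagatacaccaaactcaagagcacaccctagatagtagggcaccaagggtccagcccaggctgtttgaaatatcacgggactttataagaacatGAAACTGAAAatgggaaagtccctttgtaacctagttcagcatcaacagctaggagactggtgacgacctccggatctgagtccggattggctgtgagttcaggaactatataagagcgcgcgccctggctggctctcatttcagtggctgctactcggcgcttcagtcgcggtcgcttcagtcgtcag
Counted from the gene start, the match lies at -34 to -25 in Igtp, at -59 to -50 in Gbp2, where it reads on the opposite strand, and at -139 to -130 in B2m. Irgm1 has 2 overlapping matches, at -30 to -21 and at -24 to -15. A match describes the sequence and not the binding of a factor.

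Class I antigen presentation, the display of peptides from inside the cell, stood lower with vesicles in all of its 17 measured genes, of which 11 are above background. The list's median difference was -0.14, against -0.0007 over all genes and -0.0069 over those above background. It was -0.26 in VTS1, -0.074 in VTS2 and -0.16 in VTS3. No member passed the test; 11 of 17 were lower within all 3 numbers and 7 had no overlap between the groups, beside the background shares of 8.83% and 2.56%. Leaving out 1 array at a time moved the median between -0.19 and -0.10.

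B2m stood at 11.21, 11.47 and 11.38 on vesicle arrays VTS1, VTS2 and VTS3 and at 11.99, 11.66 and 11.66 on the cell arrays, and the controls read 11.72 (VTS1) and 11.48 (VTS3). Every vesicle array lay below every cell array and below both controls. The difference was -0.42 ± 0.12 (SE; limma, adjusted p = 0.92), with values of -0.78, -0.19 and -0.29 within the VTS numbers. H2-K1, a classical class I heavy chain, read 8.03, 8.46 and 8.20 with vesicles and 8.98, 8.58 and 8.50 with cells. H2-D1, the other classical heavy chain of this kind, read 8.07, 8.47 and 8.17 with vesicles and 8.88, 8.57 and 8.51 with cells. In both genes the groups did not overlap, but the margin between the highest vesicle array, VTS2, and the lowest cell array, VTS3, was narrow. Their differences were -0.45 ± 0.17 and -0.42 ± 0.14. H2-Q4, a non-classical heavy chain, read 6.995, 7.41 and 7.17 against 7.77, 7.42 and 7.52, a difference of -0.37 ± 0.15 with only -0.0082 within VTS2. These heavy chains are near copies of each other, so their probes can share signal.

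The rest of the pathway differed less. Psmb10, a catalytic subunit of the immunoproteasome that cuts the peptides, was the steadiest: 8.06, 7.99 and 8.01 with vesicles against 8.16, 8.10 and 8.17 with cells. All vesicle arrays lay below all cell arrays and the difference was -0.12 ± 0.032, at -0.092, -0.11 and -0.16 within the numbers. Psmb8, another immunoproteasome subunit, lay under background and differed by -0.27 ± 0.11. Erap1, which trims peptides in the endoplasmic reticulum, differed by -0.19 ± 0.062, with overlap. Tap1, a subunit of the pump that brings peptides there and also under background, differed by -0.24 ± 0.15 and stood at 6.98 with vesicles and 6.90 with cells in VTS2, the opposite order.

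The wider interferon response was lower with vesicles in 42 of 45 measured genes, with a median difference of -0.25, but only 12 members are above background and no member passed the test. Of the 45, 8 were lower in all 3 numbers and 6 had no overlap, beside 8.83% and 2.56% of all genes. The medians within the numbers were -0.78 in VTS1, 0.0 in VTS2 and -0.052 in VTS3, so most of the difference lay in VTS1, where vesicles had the lowest list score of the arrays (-0.40) and cells the highest (0.41). The controls scored 0.059 and 0.018, between these. Without cells VTS1 the median was -0.12.

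Igtp, a GTPase that guards against parasites in vacuoles, read 6.07, 6.95 and 6.26 with vesicles and 9.06, 7.10 and 8.46 with cells, and 8.09 and 6.998 on the controls. The groups did not overlap, but VTS2 contributed little: the differences were -2.98, -0.15 and -2.20. The group difference was -1.78 ± 0.61, a 3.44-fold higher level with cells, with a 95% interval from -3.34 to -0.22 (limma, adjusted p = 0.92), and -1.36 without cells VTS1. Iigp1, a related GTPase, read 6.22, 7.23 and 6.38 with vesicles and 8.58, 6.88 and 8.31 with cells. It had the same order of arrays apart from VTS2, where the vesicle array was higher, and differed by -1.31 ± 0.60. The controls of Iigp1 stood apart from each other too, at 8.17 and 7.05.

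Irgm1, a regulator of this GTPase family, read 6.88, 7.35 and 7.15 with vesicles and 7.93, 7.34 and 7.55 with cells, a difference of -0.48 ± 0.20. Gbp4 and Gbp2 belong to the guanylate-binding proteins, another family of interferon-induced GTPases. Gbp4 differed by -0.60 ± 0.26, at -1.22, 0.02 and -0.59 within the numbers. Gbp2 had no overlap (at most 7.52 with vesicles and at least 7.63 with cells) and differed by -0.38 ± 0.21. Stat2, which carries the interferon signal to the nucleus, differed by -0.24 ± 0.10, with 0.029 within VTS3. In all of these the lowest array was vesicles VTS1. Cxcl13, a chemokine that attracts B cells, had overlapping groups under background: 4.91, 5.62 and 5.04 with vesicles, 6.48, 4.98 and 4.85 with cells, and 6.74 and 6.12 on the controls. Class II antigen presentation had 10 of 14 genes lower, only 2 of the 14 above background, and a median of -0.044 that became 0.001 without cells VTS3. Macrophage markers had 16 of 33 higher and 17 lower with a median of -0.0062, which was 0.066 without vesicles VTS1.

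**Figure D2:**
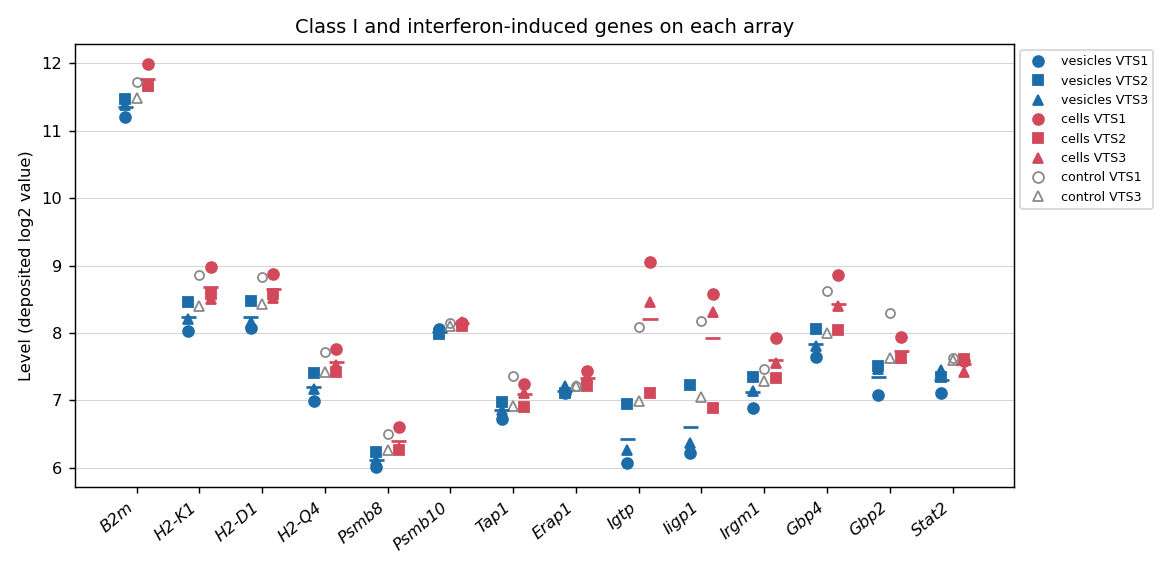
Deposited log2 level of 14 class I and interferon-induced genes on each array: blue, vesicles; red, cells; open grey, controls; marker shape gives the VTS number and short lines are group means. In Igtp the vesicle arrays (6.07 to 6.95) lie below the cell arrays (7.10 to 9.06), and the VTS2 pair, drawn as squares, lies close together in most genes.

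Genes of the scar stood higher with vesicles, by small amounts. The collagens were higher in 21 of 22 measured genes (13 above background, all 13 higher) with a median difference of 0.12. Matricellular and scar proteins, which sit in the matrix and tune its assembly, were higher in 28 of 33 with a median of 0.085. Proteoglycans were higher in 17 of 20 with a median of 0.077, and fibroblast markers in 20 of 23 with a median of 0.13. No member of these lists passed the test, and the lists share some genes. Of the 22 collagens, 9 were higher in all 3 VTS numbers and 3 had no overlap, beside 7.53% and 1.85% of all genes. The VTS2 pair hardly differed: the collagen medians were 0.082, 0.011 and 0.22 in VTS1, VTS2 and VTS3, and the matricellular ones 0.19, -0.062 and 0.18. The cell array VTS3 and the control array VTS3 scored lowest, at -0.20 and -0.14 for collagens, and the sham array of that number scored 0.078. Without cells VTS1 the matricellular median was 0.042, and without cells VTS2 it was 0.15. The fibroblast median was 0.071 without vesicles VTS3.

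Postn, a matricellular protein of activated fibroblasts, had the largest difference among the scar and fibroblast genes named: it read 9.78, 9.72 and 9.54 with vesicles and 9.20, 9.47 and 8.97 with cells. All vesicle arrays lay above all cell arrays, and the controls read 9.52 and 8.92 and the sham array 9.92. The difference was 0.47 ± 0.10 (95% interval 0.20 to 0.73; limma, adjusted p = 0.92), and 0.57, 0.25 and 0.58 within the numbers. Lum, a proteoglycan that spaces collagen fibrils, read 9.14, 8.97 and 9.15 with vesicles and 8.88, 8.83 and 8.82 with cells, again with no overlap, and differed by 0.24 ± 0.061. Sparc, a collagen-binding matricellular protein, read 11.20, 11.17 and 11.23 against 10.98, 11.16 and 10.85. Its groups met almost at VTS2, where the pair differed by 0.015, and the group difference was 0.21 ± 0.073. Timp3, an inhibitor of matrix proteases, likewise had no overlap and a VTS2 difference of 0.023, with 0.24 ± 0.090 over the groups. It had the highest difference of another list, matrix proteases and inhibitors, where 16 of 26 genes were higher with a median of 0.0082. Leaving out 1 array moved that median between -0.004 and 0.033.

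In the collagens named here the groups overlapped more often. Col1a1 and Col3a1 form the bulk of scar collagen. Col1a1 read 9.37, 9.40 and 9.27 with vesicles against 9.02, 9.43 and 8.86 with cells, and cells VTS2 was the highest of the 6. The difference was 0.24 ± 0.13 for Col1a1 and 0.17 ± 0.11 for Col3a1, and both intervals include 0 (from -0.082 to 0.57 and from -0.11 to 0.45). Col6a1, a chain of the beaded filaments around cells, differed by 0.17 ± 0.044, and Col5a2, which limits fibril width, by 0.18 ± 0.056. Col4a2, of the basement membrane, had no overlap and differed by 0.11 ± 0.041.

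Itgbl1, an integrin-like secreted protein, and Fstl1, a secreted glycoprotein, are of the fibroblast list, and Prelp, found near basement membranes, is of the proteoglycans. Itgbl1 read 8.34, 8.36 and 8.09 against 8.11, 8.13 and 7.75, and its pairs differed by nearly the same amount (0.24, 0.23 and 0.33). Although its groups overlapped, since VTS3 lay lower in both, it had 1 of the smallest unadjusted p-values of all genes (0.000168; limma, adjusted p = 0.823) with 0.27 ± 0.028. Fstl1 differed by 0.27 ± 0.074 and Prelp by 0.33 ± 0.12. Adamts1, a protease that cuts proteoglycans, went the other way: 7.56, 7.56 and 7.53 with vesicles and 7.96, 8.27 and 7.56 with cells. The difference was -0.38 ± 0.14, largest in the VTS2 pair. Its readings of 7.56 on vesicles VTS1, vesicles VTS2 and cells VTS3 are 1 identical deposited value.

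**Figure D3:**
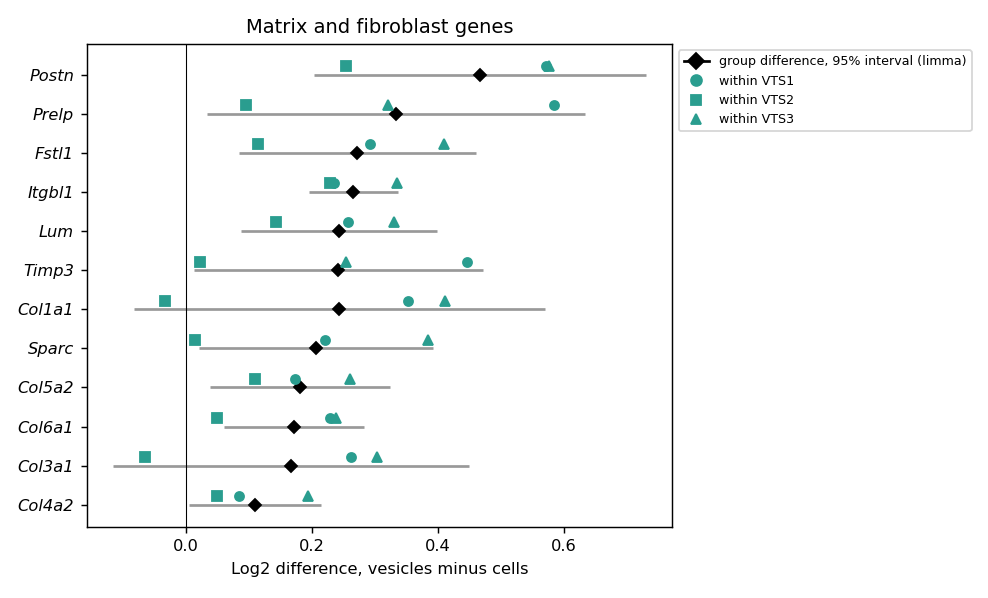
Log2 difference, vesicles minus cells, of 12 matrix and fibroblast genes: black diamonds with grey lines are the limma group difference and its 95% interval, and green points the difference within each VTS number. The VTS2 squares lie left of the group difference in every gene shown, from -0.065 in Col3a1 to 0.25 in Postn.

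Genes of mitochondrial energy supply stood slightly lower with vesicles. Fatty acid oxidation was lower in 29 of 31 measured genes, 17 of them within all 3 VTS numbers (beside 12.3% of genes above background, where 29 of the 31 lie), with a median difference of -0.072. Oxidative phosphorylation, the respiratory chain and ATP synthase, was lower in 49 of 57, 28 of them within all 3 numbers, with a median of -0.058. The citric acid cycle was lower in 16 of 21 with a median of -0.022, which was -0.0071 without vesicles VTS2 and -0.044 without cells VTS3. No member passed the test, and 2 of 31, 3 of 57 and 0 of 21 had all vesicle arrays below all cell arrays, beside 3.66% of genes above background. The medians were widest in VTS2, at -0.11 for both of the first lists, where the median over all genes above background was -0.028. Without vesicles VTS2 they were -0.035 and -0.038.

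The members named here differed by little. They were picked by low unadjusted p, which favours pairs that differ evenly. Cox8b, a heart and muscle form of a cytochrome oxidase subunit, read 9.22, 9.22 and 9.39 with vesicles and 9.34, 9.34 and 9.51 with cells. The pairs all differed by -0.12, and experiment 9 lay higher in both groups, so that the groups overlapped. The difference was -0.12 ± 0.013 (limma, adjusted p = 0.823). Cox7a1, the muscle form of another subunit, read 11.87, 11.83 and 11.94 with vesicles and 11.97, 11.99 and 12.08 with cells, with no overlap, and differed by -0.14 ± 0.018. Ech1, an enzyme for unsaturated fatty acids, read 9.46, 9.50 and 9.66 against 9.66, 9.64 and 9.85 and differed by -0.18 ± 0.029. Its controls, 9.64 and 9.72, lay between the vesicle and the cell array in VTS3 and close to the cell array in VTS1.

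Hadha, a subunit of the trifunctional protein of long-chain oxidation, differed by -0.084 ± 0.018, and Acadvl, the very long-chain dehydrogenase, by -0.11 ± 0.025. Hadha had 1 identical deposited value, 11.33, on cells VTS1, cells VTS2 and control VTS1, which narrows its spread. Suclg2, a citric acid cycle ligase, differed by -0.13 ± 0.026. Ldhb, the heart form of lactate dehydrogenase, differed by -0.14 ± 0.034 and belongs to glycolysis, where 19 of 25 genes were lower with a median of -0.040, which became 0.0036 without cells VTS2. Lung markers differed on the same array: on vesicles VTS2, where the scores of fatty acid oxidation (-0.13) and oxidative phosphorylation (-0.10) were lowest, the lung score was 0.98. Its part in the energy genes was not tested. The fibroblast score there, 0.084, was near that of cells VTS2 (0.095).

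**Figure D4:**
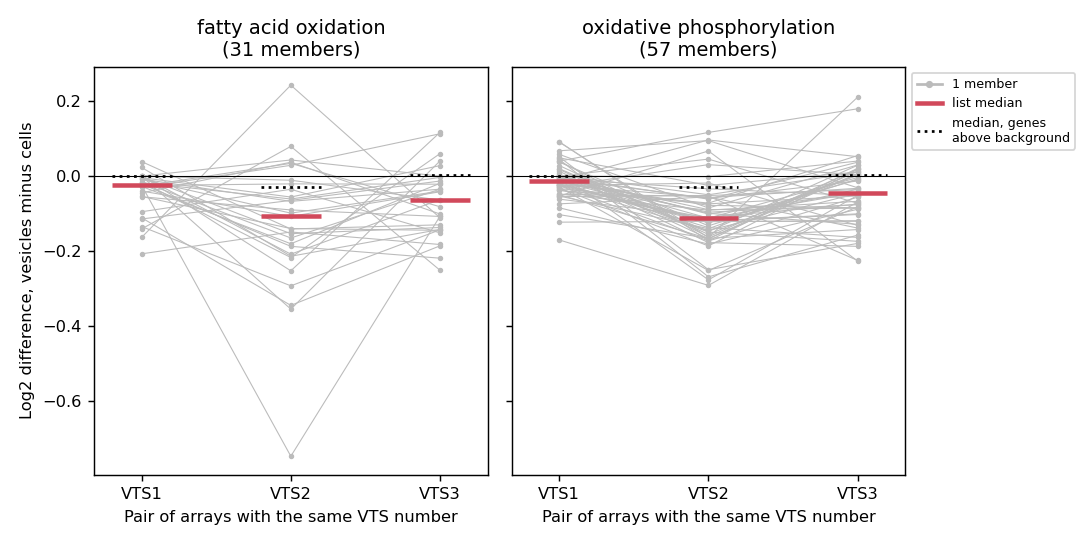
Log2 difference, vesicles minus cells, within each VTS number for each member (grey lines) of fatty acid oxidation (31 genes) and oxidative phosphorylation (57 genes). Red bars are list medians, lowest in VTS2 at -0.11 in both panels, and dotted bars are the medians of all 6772 genes above background.

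Several genes of the circadian clock differed within VTS1 and VTS2 and little within VTS3. The clock is a feedback loop in which Arntl drives its own repressors and output genes, so that Arntl peaks when Dbp and Nr1d1 are low. Of 17 measured clock genes 12 were higher and 5 lower with vesicles, 10 and 2 of them within all 3 numbers, beside 7.53% and 8.83% of all genes, and none passed the test. The median difference was 0.26 over the groups and 0.39, 0.14 and 0.061 in VTS1, VTS2 and VTS3; without cells VTS1 it was 0.13. The labels used here give no time of day at which hearts were taken.

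The D-box, TTATGTAA searched on both strands, is the element that Dbp and Hlf bind. It was present in the promoter of 1 of the 15 clock genes with a sequence, Per3, and in 188 of 17970 genes of the array (1.05%). The Per3 promoter, chr4:151044616-151044915 on the minus strand of GRCm38.p6 (RefSeq), is shown because it holds 2 matches, at -205 to -198 and -158 to -151 from the gene start.
Per3: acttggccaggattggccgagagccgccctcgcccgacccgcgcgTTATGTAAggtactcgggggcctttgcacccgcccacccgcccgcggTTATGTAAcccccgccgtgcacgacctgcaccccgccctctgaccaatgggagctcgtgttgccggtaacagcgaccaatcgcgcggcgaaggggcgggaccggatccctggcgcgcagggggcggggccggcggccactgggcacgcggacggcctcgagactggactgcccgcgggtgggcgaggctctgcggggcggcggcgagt
Per3, a period gene of the repressor arm, read 7.16, 7.14 and 7.50 with vesicles and 6.16, 6.56 and 7.47 with cells. Cell arrays VTS1 and VTS2 were low and cells VTS3 lay within the vesicle range. The difference was 0.54 ± 0.19.

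Dbp, an output gene of the clock, read 8.93, 8.90 and 9.26 with vesicles, 7.27, 8.02 and 9.06 with cells, and 8.91 and 9.11 on the controls. The low values were those of cells VTS1 and VTS2, and the difference was 0.92 ± 0.33 (limma, adjusted p = 0.92), with 1.66, 0.89 and 0.20 within the numbers. Arntl, under background, showed the reverse, 6.25, 6.16 and 5.66 with vesicles against 7.56, 7.13 and 5.77 with cells, and differed by -0.79 ± 0.27. Nr1d1, a nuclear receptor that represses Arntl, had no overlap, 9.62, 9.50 and 9.38 against 8.52, 8.77 and 9.32, and differed by 0.63 ± 0.27. Its partner Nr1d2 differed by 0.41 ± 0.14. Hlf, related to Dbp and also under background, had the most even pairs, 0.26, 0.22 and 0.21, with overlap between the groups, since VTS3 lay higher in both, and a difference of 0.23 ± 0.034. Without cells VTS1 the differences were 0.58 for Dbp, 0.34 for Per3, 0.44 for Nr1d1 and -0.55 for Arntl.

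Immediate early genes, which cells switch on within minutes of a stimulus, and heat shock chaperones, which refold damaged proteins, stood lower with vesicles mostly within the VTS2 pair. Of 33 immediate early genes 24 were lower, with a median of -0.13, and the medians within the numbers were -0.021, -0.46 and 0.11. Of 24 chaperones 21 were lower, with a median of -0.074, and 0.012, -0.25 and 0.021 within the numbers. Without cells VTS2 the medians were 0.031 and -0.013; the first was -0.22 without cells VTS1 and the other -0.14 without cells VTS3. Fos, the classical immediate early transcription factor, read 6.41, 6.45 and 6.52 with vesicles and 6.70, 8.14 and 6.59 with cells. The groups did not overlap, yet 2 of the cell arrays lay close above the vesicle arrays, and the difference of -0.68 ± 0.41 had an interval from -1.73 to 0.37 and was -0.20 without cells VTS2. Both group means of Fos lie under background.

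Atf3, a stress-induced transcription factor, read 7.12, 1 identical deposited value, on all vesicle arrays and 7.46, 8.55 and 7.23 with cells, also without overlap, and differed by -0.62 ± 0.32, or -0.24 without cells VTS2. Nr4a1, an orphan nuclear receptor, read 8.86, 8.71 and 8.63 against 8.95, 10.07 and 8.53, and Hspa1a, the inducible chaperone, read 8.79 on cells VTS2 and 5.71 to 5.93 on the other 5 arrays. On the arrays other than cells VTS2 the groups overlapped in both genes. Hspe1, a chaperone inside mitochondria, had no overlap and differed by -0.20 ± 0.053. Gadd45b, a stress-induced regulator of growth arrest, went against the list: 7.39, 7.32 and 7.18 with vesicles against 7.11, 7.14 and 7.05 with cells, with no overlap and a difference of 0.20 ± 0.031.

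**Figure D5:**
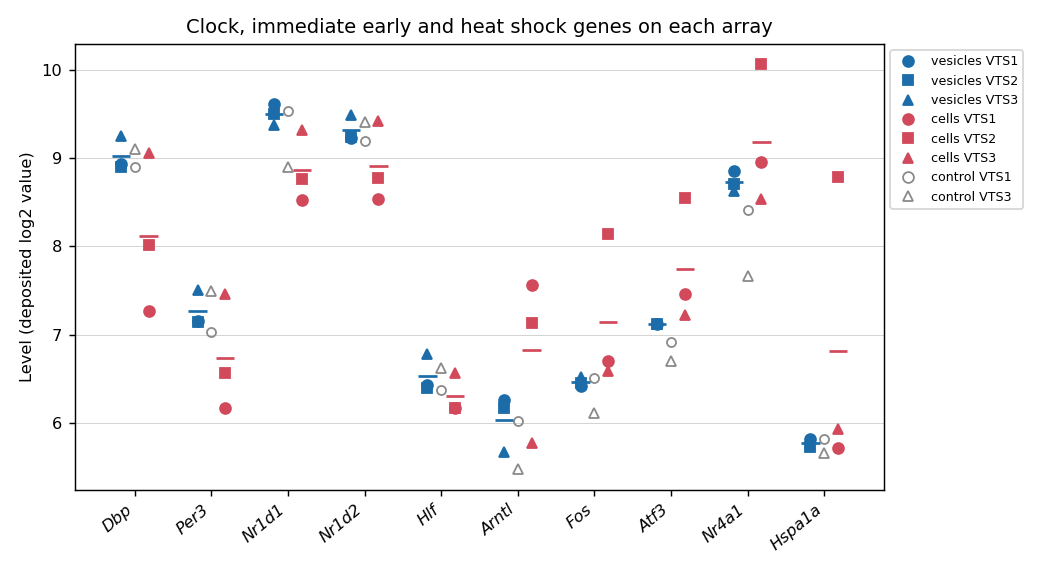
Deposited log2 level of 6 clock genes, 3 immediate early genes and the chaperone Hspa1a on each array: blue, vesicles; red, cells; open grey, controls; marker shape gives the VTS number and short lines are group means. Cells VTS1 (circle) and VTS2 (square) lie low in Dbp, at 7.27 and 8.02, and high in Arntl, and cells VTS2 lies apart in Fos (8.14) and Hspa1a (8.79).

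Muscle genes of heart failure had small differences of either sign. Of 22 genes of the failure and fetal programme 14 were higher and 8 lower with a median of 0.0059, and of 36 contractile and Z-disc genes 16 were higher and 20 lower with a median of -0.0094. Leaving out 1 array moved the first median between -0.011 and 0.028 and the other between -0.028 and 0.020. Nppa differed by 0.096 ± 0.063, and Nppb, the other natriuretic peptide, by -0.064 ± 0.17 with a 95% interval from -0.51 to 0.38. Myh6 differed by 0.0009 ± 0.021, which bounds it between -0.053 and 0.055, and Myh7, the slow myosin that failing mouse hearts express more, by 0.12 ± 0.079. Xirp2, an actin-binding protein of the intercalated disc, read 10.89, 10.56 and 10.97 with vesicles and 10.56, 10.39 and 10.38 with cells and differed by 0.36 ± 0.12. Tnni3, cardiac troponin I, differed by -0.080 ± 0.023, with 1 identical deposited value, 10.49, on vesicles VTS3, cells VTS1 and cells VTS2.

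Among genes of atrial muscle, Myl7 and Sln gave larger values. Myl7, the atrial myosin light chain, read 8.003, 8.13 and 7.21 with vesicles and 8.96, 8.93 and 7.61 with cells, and 8.55 and 7.31 on the controls. VTS3 was low in both groups, so the groups overlapped, but each vesicle array was lower than the cell array of its number, by -0.96, -0.80 and -0.40. The difference was -0.72 ± 0.11 (limma, adjusted p = 0.92). Sln, a small inhibitor of the calcium pump in atrial muscle, was also lower with vesicles in each pair. It read 7.78, 7.88 and 6.78 against 8.59, 8.74 and 7.15, and differed by -0.68 ± 0.11. Kcnj3, a channel subunit opened by acetylcholine, had no overlap, 8.28, 8.34 and 8.38 against 8.50, 8.53 and 8.58, and differed by -0.20 ± 0.058. Over the 17 atrial markers 12 were lower, 5 of them in all 3 numbers, beside 8.83% of all genes. Their median was -0.051, which was -0.024 without cells VTS2 and -0.095 without cells VTS3. How much atrium each heart sample held was not tested.

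The genes with the smallest unadjusted p above background are named by rule. Srsf2, a splicing factor, had the smallest: 9.09, 9.08 and 9.28 with vesicles and 8.93, 8.94 and 9.09 with cells, a difference of 0.16 ± 0.015 (limma, unadjusted p = 9.95e-05, adjusted p = 0.823). Each vesicle array was above the cell array of its number, as the rule requires, although the groups overlapped. Plxdc2, a membrane receptor, had no overlap, 8.84, 8.84 and 9.05 against 8.50, 8.57 and 8.47, and differed by 0.40 ± 0.059. Klf9, a transcription factor induced by glucocorticoids, had no overlap either, 9.44, 9.44 and 9.60 against 9.21, 9.13 and 9.38, and differed by 0.26 ± 0.047. Cast, the calpain inhibitor, differed by 0.15 ± 0.019, Ankrd12 by 0.33 ± 0.052 and Fam117b by 0.25 ± 0.042. On the lower side, besides Cox8b, Cox7a1, Myl7, Sln and Ech1, stood Cnksr3 (no overlap, -0.27 ± 0.047) and Tnni3k, a kinase of heart muscle (-0.17 ± 0.031). Rpl3l, a ribosomal protein of striated muscle (-0.13 ± 0.018), and Rnf128, a ubiquitin ligase (-0.12 ± 0.015), stood there too. Tnni3k had 1 identical deposited value, 7.58, on vesicles VTS3, cells VTS1 and cells VTS2.

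Vessels and their growth factors differed little. Endothelial markers were higher in 14 of 31 genes with a median of -0.0052, and mural cell markers in 13 of 20 with a median of 0.058. The first median was 0.018 without cells VTS2, and the mural one was -0.0076 without cells VTS3, so that both signs turned. Pdgfrb, the receptor that marks pericytes, had no overlap, 9.04, 8.91 and 9.06 against 8.86, 8.89 and 8.77, and differed by 0.17 ± 0.058. Smtn, of smooth muscle, had no overlap at 0.055 ± 0.015. Fabp4, a fatty acid carrier of capillaries and fat cells, differed by 0.13 ± 0.036, and Cldn5, of endothelial tight junctions, by -0.33 ± 0.14. Vegfa, the main vessel growth factor, differed by -0.14 ± 0.079 and Igf1, a growth factor of muscle, by 0.026 ± 0.083, the latter under background. Igfbp7, which binds such factors, had no overlap and differed by 0.19 ± 0.061.

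Lung transcripts were high on 1 of the 6 arrays. Sftpc, the surfactant protein of alveolar cells, read 9.75 on vesicles VTS2 and 4.28 to 4.49 on the other 5, and Scgb1a1, of airway secretory cells, read 8.90 and 4.64 to 4.76. The vesicle arrays of Sftpc lay above the cell arrays without overlap, but its difference of 1.87 ± 1.47 was 0.11 without that array. Both genes lay under background in the group means. Of 20 lung markers 17 were higher with vesicles, with a median of 0.18 that became -0.002 without vesicles VTS2 and 0.29 without vesicles VTS1. The lung score was 0.98 on vesicles VTS2, about -0.15 on both other vesicle arrays and -0.18 to -0.13 on the cell arrays. Only 2 of the 20 had a group mean above background.

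Whether the difference itself differed between the experiments was tested as an interaction of treatment and experiment, which leaves 2 residual degrees of freedom. limma called 0 of 30142 genes (0.0%), with a smallest adjusted p of 0.148. At an unadjusted p under 0.05 limma gave 4108 genes, more than that cut-off alone would give. The spread there comes only from VTS1 against VTS2 within the vesicle and within the cell arrays. Values that tie or nearly tie on those arrays narrow it, so the excess was not read as a difference between experiments. Experiment 9 holds only the VTS3 pair, so the experiment and that pair cannot be told apart.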

How the data were processed

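Per the labels' protocols, Trizol RNA of whole frozen hearts was labelled with an Affymetrix sense target kit. The deposited log2 values, 1 per probe set and array, were used as they stand. Their log base was read from their range (1.55 to 14.2). The authors' steps of background correction, summary and normalization were not given in the sources used here. The submitters' processing notes name Partek and give no version.

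Of 32750 annotated probe sets, 30604 had 1 gene symbol and were kept. Symbols were updated through a RefSeq table (GRCm38.p6), which matched 22818. For 355 genes with several probe sets the one with the highest mean was taken, which left 30142 genes. Of these 18418 (61.1%) have identical values on 3 or more arrays, which narrows their spread. Arrays have no read depth, and their number limits the precision.

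limma 3.58.1 (lmFit and eBayes, R 4.3.3) fitted group means with experiment as a block to the 8 injected arrays, controls included, with 4 residual and 1.18 prior degrees of freedom. Tests were two-sided and adjusted by Benjamini-Hochberg over 30142 genes at 0.05. The fit was also tested on simulated data with independent normal noise. Those data hold no tied values or outlying arrays, so they do not show how the fit handles these. Errors after ± are standard errors of the difference between 3 vesicle and 3 cell arrays, with the spread estimated over the 8 arrays.

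Members and the 50 gene lists were chosen with earlier results of these data known. Named genes are up to 10 per direction by the lowest p above background with 1 sign in 3 of 3 VTS numbers, up to 4 per list, and a fixed set of 12 (Nppa, Nppb, Myh6, Myh7, Col1a1, Col3a1, Postn, Vegfa, Igf1, Fos, Cxcl13 and Sftpc). Not every gene the rule allows is named, and gene models, microRNAs, small nucleolar RNAs and sensory receptors are only counted. Iigp1, H2-K1, H2-Q4, Psmb8, Tap1, Gbp2, Arntl, Hlf, Nr4a1, Hspa1a, Gdpd3 and Scgb1a1 were named after their values were seen. Alternatives changed the block, arrays, normalization, moderation, filter and tied genes.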

Additional observations from a re-analysis of the deposited data

Results flagged for a closer look

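Sftpc read 6.35 on the sham array, which entered no comparison, and 4.52 and 4.51 on the control arrays; it was listed because this level lies above both controls.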

How the results depend on the processing

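limma called 0 genes under every alternative run, with smallest adjusted p-values from 0.266 (least squares) to 1; unadjusted counts, which moved, were 384 to 817 higher and 557 to 1008 lower when 1 array or 1 pair was left out. With the VTS number as a replicate block the 6 arrays gave 0 calls (616 higher and 741 lower at an unadjusted p under 0.05) and the 8 arrays 0 calls (634 and 809), and the block changed no call. The numbers were not taken as pairing the arrays. Over genes above background, the deviations of same-numbered arrays from their group means correlated at -0.212, 0.189 and 0.156. Those of different-numbered arrays correlated between -0.297 and 0.148, so the same-numbered values were not higher throughout. Genes without overlap numbered 1634 higher and 1101 lower after quantile normalization, which breaks ties and turns the balance from more lower to more higher, and 151 higher and 244 lower among genes above the negative controls, where fewer genes are tested. Among genes above the negative controls the atrial median was -0.11 and the proteoglycan median 0.13. Leaving out arrays moved the atrial median from -0.095 to -0.024.

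The sign turned in 6 named genes, and the cause was not tested. Leaving out 1 array moved Nppb from -0.28 to 0.059, Myh6 from -0.022 to 0.013, Igf1 from -0.074 to 0.096, Scgb1a1 from -0.049 to 2.29 and Cxcl13 from -0.60 to 0.22. Without 1 pair Nppb reached 0.13 (VTS2), Myh6 -0.025 (VTS3), Igf1 -0.059 (VTS3), Scgb1a1 -0.031 (VTS2), Cxcl13 0.41 (VTS1) and Nr4a1 0.002 (VTS2). In experiment 1 alone Myh6 was -0.025 and Igf1 -0.059. With 3 arrays a group, differences smaller than the intervals given may go undetected.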

Other observations

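Small groups outside the comparisons above are given as values. Scd1, the enzyme that makes monounsaturated fatty acids, read 8.43, 8.76 and 8.76 with vesicles and 8.08, 8.25 and 7.70 with cells. All vesicle arrays lay above all cell arrays, and above the controls at 8.02 and 7.90, and the difference was 0.64 ± 0.16 (limma, adjusted p = 0.92), largest in VTS3 at 1.06. Of the other 20 fat synthesis genes measured 7 were higher, with a median of -0.027. Nfkbia, the inhibitor of NF-kappaB, had no overlap and differed by 0.10 ± 0.022, and Rel, a subunit of NF-kappaB, had no overlap the other way at -0.28 ± 0.088, with -0.38, -0.39 and -0.069 within the VTS numbers. Their list had 12 of 21 genes higher and a median of 0.004, which was -0.0063 without vesicles VTS3.

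Ion channels and gap junctions were lower in 15 of 20 genes with a median of -0.054, which was -0.023 without cells VTS2, and none passed the test. The ribosomal RNA genes of the n-R5s family stood lower together: 41 of the 52 above background had all vesicle arrays below all cell arrays, beside 3.66% of all genes above background. They are near copies whose 70 members hold only 37 distinct sets of values, and they were singled out after their values were seen. Over all genes, 531 shared all 9 values with another gene.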
